A study of Mus musculus with 24 samples.

Results

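The BCL2 family decides at the mitochondrion whether a stressed cell lives or dies, and it was followed here in mouse cortical astrocytes that lacked p53 or overexpressed 1 of 3 p53 mutants. The 10 genes described, Bcl2, Bcl2l1, Mcl1, Bax, Bak1, Bok, Bid, Bbc3, Pmaip1 and Bcl2l11, were taken by name as the core regulators of the pathway. All 10 were among the 14427 genes of the count table, and all 10 passed the filter on low values, so no member dropped out of any comparison. RNA was sequenced from 8 lines with 3 libraries each, 24 in all, and the library totals ran from 52787288 to 136503809 counts with a median of 80684345.

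The cells were primary astrocytes of C57BL/6 background, harvested from the cortex at postnatal day 1 from Trp53 f/- pups, in which 1 allele was already deleted and the other was flanked by lox-P sites. Pups of each sex were pooled into 1 male and 1 female culture. The male p53 KO and female p53 KO lines received lentiviral Cre with a puromycin marker, which removes the floxed allele. The p53 R172H, p53 Y202C and p53 Y217C lines of each culture first received a retrovirus that drives the mutant Trp53 together with eGFP, were sorted for eGFP, and then received the same Cre virus. All 8 lines therefore shared the loss of the endogenous Trp53 allele, and were used at passages 10 to 15. With 1 culture per sex and 1 line per mutation and culture, sex cannot be told apart from culture, nor the mutation from the line that carries it. Only the mutant lines received the retrovirus and the eGFP sort, so these cannot be told apart from the mutant p53 in any comparison with a KO line. The 3 libraries of a line come from separate thaws and platings of that line as the study describes its experiments, so the p-values measure the spread between such libraries and not between animals.

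Cells keep this family in balance. The pro-survival members Bcl2, Bcl2l1 and Mcl1 hold the pore-forming effectors Bax and Bak1 in check, and an active effector opens the outer mitochondrial membrane and lets cytochrome c out. BH3-only members such as Bid, Bbc3 (PUMA), Pmaip1 (NOXA) and Bcl2l11 (BIM) sense damage or loss of growth signals and tip the balance by binding the pro-survival proteins or the effectors. Bax, Bbc3 and Pmaip1 are classical targets of wild-type p53, which none of these lines retained.

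The promoters are shown here because 1 of them carries letters that resemble a p53 half-site and because the other 2 belong to the members whose direction was most uniform across the mutant lines. RefSeq gave 14 windows for 9 members, all but Pmaip1, and each sequence is the 250 bases before the annotated start site in GRCm38.p6, written 5′ to 3′ on the gene's strand. In the Bax window, at chr7:45466899-45467148 on the minus strand, the capitals mark the single match to the p53 half-site consensus, which ends 191 bases before the start site. In the Bid window, at chr6:120916825-120917074 on the minus strand, and the Bok window, at chr1:93685325-93685574 on the plus strand, the capitals mark GGGCGG on either strand.
Bax: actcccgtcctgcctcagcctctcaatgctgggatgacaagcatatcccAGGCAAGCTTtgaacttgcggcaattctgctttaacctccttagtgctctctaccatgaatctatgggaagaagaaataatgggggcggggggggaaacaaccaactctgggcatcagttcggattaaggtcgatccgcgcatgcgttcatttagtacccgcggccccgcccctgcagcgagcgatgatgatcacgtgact
Bid: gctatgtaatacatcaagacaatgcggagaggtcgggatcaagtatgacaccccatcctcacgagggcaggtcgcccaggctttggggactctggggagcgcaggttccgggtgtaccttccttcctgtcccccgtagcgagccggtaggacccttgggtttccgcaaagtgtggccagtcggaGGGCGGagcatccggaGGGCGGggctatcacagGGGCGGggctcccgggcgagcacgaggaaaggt
Bok: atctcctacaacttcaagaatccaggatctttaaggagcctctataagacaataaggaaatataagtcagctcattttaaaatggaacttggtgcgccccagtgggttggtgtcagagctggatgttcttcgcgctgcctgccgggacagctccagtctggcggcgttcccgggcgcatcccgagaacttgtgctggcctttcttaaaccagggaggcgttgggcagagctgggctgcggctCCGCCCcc

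The p53 half-site consensus, searched by its 10 letters with no mismatch, was in 7.13% of the 32841 promoter windows of the same length, and in 1 of the 14 member windows. GGGCGG, the core of a GC box, was found in 10 of the 14 member windows, from 7 members, and in 32.7% of all windows. CCAAT was found in 3 member windows, of Bcl2l11 and Bbc3, and in 33.9% of all windows, and the forkhead letters GTAAACA in 2 windows of the same genes and in 3.17% of all windows. TATAAA and TGANTCA, which occur in 12.4% and 6.75% of all windows, were in no member's window. Both strands were searched, a match is a description of the letters and not of a bound site, and the member windows held between 47.6% and 81.6% G and C against a median of 52.4% over all windows.

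Trp53 itself checked the labels of KO against mutant lines. It cannot show the mutation or the sex of a line, and genes that mark sex were not read here. It stood at 46.5 to 53.7 CPM, that is counts scaled to a common effective library size, in the 6 KO libraries. In the mutant lines, where the count includes the retroviral transcript, it stood at 572 to 605 CPM in female p53 Y202C, 1190 to 1250 in male p53 Y217C, 1890 to 2020 in female p53 R172H, 2200 to 2350 in male p53 R172H, 2260 to 2440 in male p53 Y202C and 3550 to 3870 in female p53 Y217C. The lines thus differed in Trp53 level as well as in mutation, and the part of that level in the results was not tested. Of 9 astrocyte markers fixed for the check, Gja1 and Sox9 were at 77.3 to 238 and 70.9 to 186 CPM in the libraries. Slc1a3 and Aldh1l1 differed widely between lines, and their libraries ran from 3.07 to 287 and from 0.0255 to 62.2 CPM. Gfap and Aqp4 ran from 0 to 8.37 and from 0 to 9.22 CPM. Slc1a2, Aldoc and S100b reached at most 8.46, 6.34 and 1.46 CPM. Markers of fibroblasts, all 5 in the table, summed to 22100 to 41000 CPM in the 4 female lines and the male p53 KO and p53 R172H lines, to 15800 to 16500 in male p53 Y217C and to 7740 to 9540 in male p53 Y202C. Of the other markers, 2 of 6 for microglia, 2 of 6 for the oligodendrocyte lineage, 1 of 5 for neurons, 2 of 4 for endothelium and 3 of 4 for pericytes were in the table, and their sums reached at most 114, 14.8, 1.59, 40.8 and 1030 CPM in any library. The part of these markers in the results was not tested, and in bulk RNA fewer cells of a kind cannot be told apart from less RNA per cell.

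Levels per kilobase were taken over all annotated exons of a gene, not over the transcript expressed, so the order between genes is approximate. Mcl1, Bak1 and Bax were the most abundant members on this scale, with medians over the 24 libraries of 51.2, 43.2 and 29.4 CPM per kb. Bok, Bcl2l1, Bbc3 and Pmaip1 followed at 11.4, 10.8, 7.09 and 6.61, and Bid, Bcl2l11 and Bcl2 were lowest at 3.51, 3.36 and 1.61. The 3 most abundant members varied least, by 1.64-fold, 1.26-fold and 1.6-fold between the highest and the lowest line. Pmaip1 varied most, by 14.7-fold, then Bcl2l1 by 4.85-fold, Bid by 3.46-fold and Bcl2 by 3.41-fold. The lowest count behind any member value was that of Pmaip1 in a female p53 Y202C library.

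**Figure D1:**
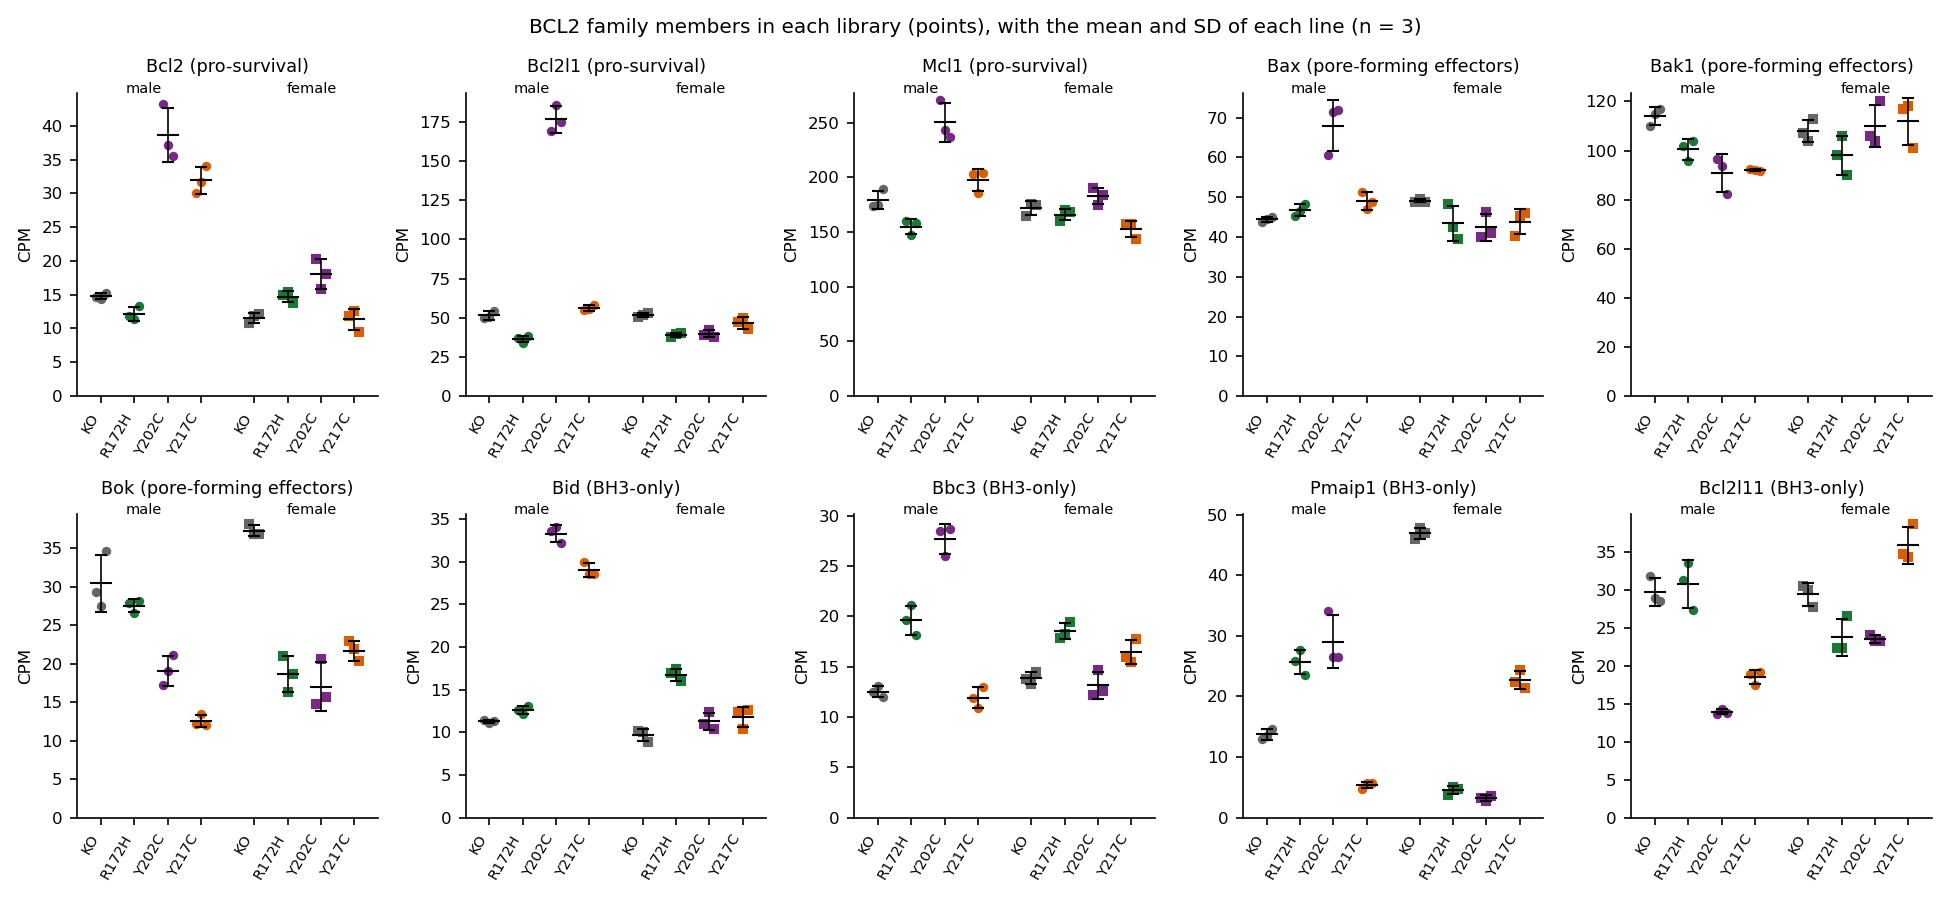
CPM (vertical axes, each from 0) of the 10 members in each of the 24 libraries, with the mean and the SD of each line (n = 3), male lines as circles and female lines as squares. Bcl2l1 is at 169 to 186 CPM in male p53 Y202C and at 34.1 to 58.4 in all other libraries, and Pmaip1 is at 46 to 47.8 in female p53 KO and at 2.66 to 5.05 in female p53 Y202C and female p53 R172H.

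Across the 6 comparisons of a mutant line with the KO line of its own culture, 45 of the 60 member values passed an adjusted p of 0.05 by edgeR's quasi-likelihood test, 20 higher and 25 lower. In male p53 R172H 6 of 10 members passed, 2 higher and 4 lower, against 40.7% of all genes tested (20.2% higher and 20.5% lower). In male p53 Y202C 10 of 10 passed, 7 higher and 3 lower, against 73% of all genes (37.6% higher and 35.4% lower). In male p53 Y217C 7 passed, 3 higher and 4 lower, against 70.5% (34.9% higher and 35.6% lower). Among the female lines, p53 Y217C had 7 members past the threshold, 3 higher and 4 lower, where 56.7% of all genes passed (28% higher and 28.7% lower). Female p53 Y202C had 7, 2 higher and 5 lower, where 68.6% passed (34.3% in each direction), and female p53 R172H had 8, 3 higher and 5 lower, where 69.7% passed (34.4% higher and 35.3% lower). The share of members called was closest to that of all genes in male p53 Y217C and in the female p53 Y202C line. With only 10 members such shares are coarse, so no departure from the background is read from the wider gaps in the other lines. The differences from the background were not tested in any line.

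The net direction of the changes set male p53 Y202C apart. The median log2 fold change of the 10 members, in which rises and falls cancel, was 0.85 there and between -0.16 and 0.03 in the other 5 lines. The median of all genes was between -0.01 and 0.01 in each of the 6. The largest single member change was in another line, Pmaip1 at -3.88 in female p53 Y202C. With an absolute log2 fold change above 0.5 asked for as well, 8 members passed in male p53 Y202C (45.3% of all genes) and 5 in male p53 Y217C (40.3%), but 2 in male p53 R172H (12.9%), 2 in female p53 Y217C (25.3%), 3 in female p53 R172H (38.8%) and 3 in the female p53 Y202C line (37.7%).

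By role, all 3 pro-survival genes rose in male p53 Y202C, where 37.6% of all genes rose, and all 3 fell in male p53 R172H, where 20.5% fell, the call on Bcl2 there being lost without any 1 of 4 libraries, while in each other line 2 of the 3 passed. Of the 3 pore-forming effectors, Bax in male p53 Y202C was the single rise in any line, against 10 falls over the 6 lines. Of these falls, 5 were of Bok, 3 of Bak1 and 2 of Bax. Leaving out 1 library could end the calls on Bak1 in male p53 R172H and on Bax in female p53 R172H and female p53 Y202C. The 4 BH3-only genes moved in both directions in each line except male p53 R172H, where 2 rose and 2 did not pass. Of all genes, 20.2% to 37.6% rose and 20.5% to 35.6% fell in a line.

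**Figure D2:**
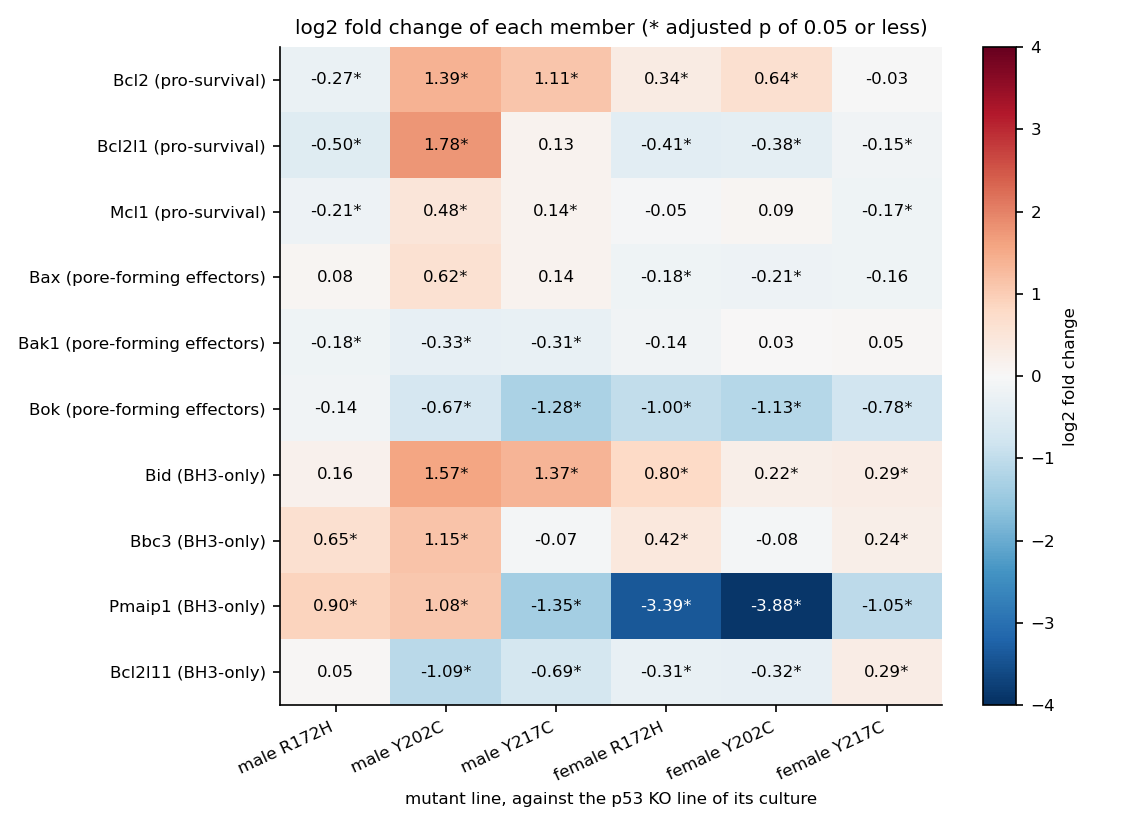
log2 fold change (colour and printed value) of each member (rows) in each mutant line against the p53 KO line of its culture (columns), with an asterisk where the adjusted p was 0.05 or less. Bok is negative and Bid positive in all 6 columns, with 5 asterisks each, whereas Pmaip1 runs from -3.88 to 1.08 with an asterisk in every column.

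Among the pro-survival members, Bcl2, the founding member that blocks Bax and Bak1 (ENSMUSG00000057329, chromosome 1, 106538178 to 106714274, minus strand, GRCm38), rose in 4 lines and fell in 1. Male p53 KO libraries were at 14.4, 14.6 and 15.3 CPM, those of male p53 Y202C at 35.5, 37.2 and 43.2, and those of male p53 Y217C at 30.1, 31.7 and 34. Neither mutant line overlapped the KO, and the log2 fold changes were 1.39 (SE 0.0977, adjusted p = 5.92e-12) and 1.11 (SE 0.0975, adjusted p = 3.8e-10). In male p53 R172H the libraries were lower, at 11.4, 11.8 and 13.3 CPM, with a log2 fold change of -0.27 (adjusted p = 0.03). Female p53 KO libraries were at 10.8, 11.8 and 12.2 CPM, those of female p53 R172H at 13.8, 14.9 and 15.4, and those of female p53 Y202C at 15.9, 18.1 and 20.3. Both female lines lay above the KO, by 0.34 (adjusted p = 0.00379) and 0.64 (adjusted p = 4.65e-06) on the log2 scale. Female p53 Y217C, at 9.53, 11.9 and 12.6 CPM, overlapped the KO, with a difference of -0.03 and a 95% interval from -0.24 to 0.17. The call in male p53 R172H was lost when any 1 of 4 libraries was left out (replicates 2 and 3 of p53 R172H and 1 and 3 of male p53 KO), at log2 values of -0.28 to -0.23 and adjusted p from 0.0544 to 0.119.

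Bcl2l1, which encodes BCL-XL (ENSMUSG00000007659, chromosome 2, 152780668 to 152831728, minus strand), set 1 line apart from all others. The male p53 Y202C libraries held 169, 175 and 186 CPM and the male p53 KO libraries 49.7, 50.2 and 54.5, a log2 fold change of 1.78 (3.43-fold, SE 0.0616, adjusted p = 1.06e-17). The highest library of any other line was at 58.4 CPM. The other R172H and Y202C lines moved the other way: male p53 R172H was at 34.1, 37.1 and 38.2 CPM, with a log2 fold change of -0.5 (adjusted p = 7.13e-07). Female p53 KO libraries were at 50.2, 51.8 and 53.3 CPM, female p53 R172H at 37.4, 39.3 and 40.3 and female p53 Y202C at 37.8, 39.2 and 42.4. Both female lines lay below every KO library, with log2 fold changes of -0.41 (adjusted p = 2.35e-06) and -0.38 (adjusted p = 8.2e-06). Female p53 Y217C was lower by a smaller step, -0.15 (adjusted p = 0.0385), which was lost without replicate 1 or 3 of that line or replicate 1 or 2 of female p53 KO (log2 -0.16 to -0.09, adjusted p from 0.0546 to 0.234). In male p53 Y217C the value was 0.13 (95% interval 0 to 0.25, adjusted p = 0.0616), and it passed in DESeq2 with 0.14 (adjusted p = 0.0381) and in limma with 0.15 (adjusted p = 0.00355).

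Mcl1 (ENSMUSG00000038612, chromosome 3, 95658788 to 95663176, plus strand), a pro-survival member known for the rapid turnover of its protein, moved little in all lines but male p53 Y202C. There the libraries were at 237, 243 and 271 CPM against 174, 175 and 189 in male p53 KO, a log2 fold change of 0.48 (SE 0.0578, adjusted p = 7.45e-08). The remaining lines ranged from 144 to 204 CPM. The smaller calls were -0.21 in male p53 R172H (adjusted p = 0.0058), 0.14 in male p53 Y217C (adjusted p = 0.0352) and -0.17 in female p53 Y217C (adjusted p = 0.0145). In male p53 Y217C the libraries overlapped those of the KO, and the call was lost without replicate 1 or 3 of that line or 2 or 3 of male p53 KO (log2 0.11 to 0.12, adjusted p from 0.105 to 0.16). In female p53 Y217C it was lost without replicate 1 of that line or replicate 2 of female p53 KO (log2 -0.15 to -0.13, adjusted p from 0.0551 to 0.0906). Female p53 R172H and female p53 Y202C differed from the KO by -0.05 (95% interval -0.17 to 0.07) and 0.09 (95% interval -0.03 to 0.21).

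Of the pore-forming effectors, Bax (ENSMUSG00000003873, chromosome 7, 45461697 to 45466898, minus strand) also rose in male p53 Y202C. Its libraries there were at 60.6, 71.5 and 72 CPM against 43.8, 44.4 and 45 in male p53 KO, a log2 fold change of 0.62 (SE 0.0726, adjusted p = 5.16e-08). In male p53 R172H and male p53 Y217C every library lay above the KO, at 45.4 to 48.4 and 47.1 to 51.4 CPM, yet the log2 differences of 0.08 (95% interval -0.07 to 0.23) and 0.14 (95% interval -0.01 to 0.3) did not pass. In the female culture the KO libraries were at 48.8, 48.9 and 49.5 CPM and all 9 mutant libraries lay below them, at 39.6 to 48.2. The log2 fold changes were -0.21 for p53 Y202C (adjusted p = 0.0138), -0.18 for the p53 R172H line (adjusted p = 0.0342) and -0.16 for the p53 Y217C line (adjusted p = 0.0625). In limma the values of male and female p53 Y217C passed, at 0.17 (adjusted p = 0.00506) and -0.18 (adjusted p = 0.00382). These small calls did not hold throughout. That of p53 R172H was lost without any 1 of 5 libraries (replicates 1 and 2 of that line and all 3 of female p53 KO, adjusted p from 0.0597 to 0.198) and in DESeq2 (adjusted p = 0.0602), and that of p53 Y202C without replicate 1 or 3 of that line (adjusted p from 0.0515 to 0.113). The part of the p53 half-site letters of the Bax window in these values was not tested. Bax shares 192 exon bases, 12.18% of its exons, with Gm45808 on the same strand, and reads over those bases cannot be assigned.

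Bak1, the other canonical effector (ENSMUSG00000057789, chromosome 17, 27019810 to 27029009, minus strand), had the narrowest range of the family. Its libraries ran from 82.1 to 120 CPM over all lines. It fell in the 3 male mutant lines, by 0.33 in p53 Y202C (adjusted p = 0.000197), by 0.31 in the p53 Y217C line (adjusted p = 0.000411) and by 0.18 in the p53 R172H line (adjusted p = 0.0437), each on the log2 scale. The male KO libraries were at 110, 115 and 117 CPM, and those of male p53 Y217C at 91.6, 92.1 and 92.3. In the female lines the libraries overlapped the KO and the differences were -0.14, 0.03 and 0.05, with 95% intervals that together ran from -0.28 to 0.2. The call in male p53 R172H was lost without replicate 2 or 3 of that line or 1 or 2 of male p53 KO (log2 -0.19 to -0.14, adjusted p from 0.0696 to 0.166). It was also lost in edgeR with a block for the replicate number (adjusted p = 0.0574). Bak1 shares 437 exon bases, 18.16% of its exons, with Ggnbp1 on the opposite strand, and the setting for strand in the counting is not given in the sources used here, so reads over those bases cannot be assigned. Ggnbp1 changed by 0.8 in male p53 Y202C (adjusted p = 0.000264), the direction opposite to Bak1, and passed in no other of the 6 comparisons.

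Bok, an effector-like member that is held low by degradation of its protein in many cells (ENSMUSG00000026278, chromosome 1, 93685660 to 93695764, plus strand), was lower in 5 of the 6 mutant lines and higher in none. Female p53 KO libraries were at 36.8, 36.9 and 38.1 CPM, female p53 R172H at 16.3, 18.6 and 21, female p53 Y202C at 14.8, 15.7 and 20.6 and female p53 Y217C at 20.3, 21.9 and 22.9. Every female mutant library lay far below every female KO library. The log2 fold changes were -1 (SE 0.106, adjusted p = 1.12e-08), -1.13 (SE 0.108, adjusted p = 2.37e-09) and -0.78 (SE 0.106, adjusted p = 1.23e-06). In the male culture the KO libraries were at 27.5, 29.3 and 34.6 CPM, p53 Y202C at 17.2, 19 and 21.1 and p53 Y217C at 12, 12.2 and 13.4. The falls were by 0.67 (adjusted p = 4.71e-06) and 1.28 (adjusted p = 2.09e-10) on the log2 scale. Male p53 R172H, at 26.6, 27.9 and 28.1 CPM, overlapped the KO, with a difference of -0.14 and a 95% interval from -0.36 to 0.07. Of all genes, 2.56% were lower in all 6 lines and 2.54% higher in all 6, whereas no member passed in 1 direction in all 6. The share of all genes that passed in 1 direction in 5 of the 6, as Bok here and Bid below, was not computed. Of the 63 genes in the pathway lists read further below, 9 were higher in 5 and 7 lower in 5. Such a pattern was thus not particular to Bok and Bid.

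Among the BH3-only members, Bid (ENSMUSG00000004446, chromosome 6, 120891930 to 120916853, minus strand), which links death receptors and caspase-8 to the mitochondrion, was the counterpart of Bok, higher in 5 lines and lower in none. Male p53 KO libraries were at 11.1, 11.3 and 11.4 CPM, male p53 Y202C at 32.2, 33.6 and 34.1 and male p53 Y217C at 28.6, 28.6 and 30. The log2 fold changes were 1.57 (2.96-fold, SE 0.074, adjusted p = 3.46e-15) and 1.37 (2.58-fold, SE 0.0738, adjusted p = 4.11e-14). Female p53 KO libraries were at 8.83, 10 and 10.1 CPM and female p53 R172H at 16, 16.9 and 17.4, a log2 fold change of 0.8 (adjusted p = 1.21e-09). Female p53 Y202C and female p53 Y217C were higher by 0.22 (adjusted p = 0.0124) and 0.29 (adjusted p = 0.0022). That of p53 Y202C was lost without its replicate 2 or without replicate 1 of female p53 KO (log2 0.15 to 0.16, adjusted p from 0.088 to 0.101) and in limma (0.17, adjusted p = 0.0544). Male p53 R172H, at 12.1, 12.6 and 13.1 CPM, lay above the KO in every library, but its 0.16 did not pass (adjusted p = 0.0842). Bid shares 628 exon bases, 17.69% of its exons, with Bcl2l13 on the opposite strand. Bcl2l13, itself a BCL2 family gene, fell by 0.29 in male p53 Y202C and by 0.31 in female p53 R172H and differed by -0.07 in male p53 Y217C. Reads over the shared bases cannot be assigned, and their part in the Bid values was not tested.

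Bbc3, which encodes PUMA (ENSMUSG00000002083, chromosome 7, 16308393 to 16318205, plus strand), rose in 4 lines. Male p53 KO libraries were at 12, 12.5 and 13.1 CPM, male p53 R172H at 18.2, 19.6 and 21.1 and male p53 Y202C at 26, 28.5 and 28.7. The log2 fold changes were 0.65 (SE 0.0799, adjusted p = 7.56e-07) and 1.15 (SE 0.08, adjusted p = 5.11e-12), with no overlap of libraries. Female p53 R172H, at 17.9, 18.3 and 19.4 CPM, lay above the female KO at 13.3, 13.8 and 14.5, by 0.42 (adjusted p = 6.46e-05). Female p53 Y217C was higher by 0.24 (adjusted p = 0.0127), a call lost without its replicate 1 or without replicate 2 of female p53 KO (log2 0.18 to 0.22, adjusted p from 0.0533 to 0.0865). Male p53 Y217C and female p53 Y202C overlapped their KO lines, at -0.07 (95% interval -0.24 to 0.1) and -0.08 (95% interval -0.25 to 0.09).

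Pmaip1, which encodes NOXA, a BH3-only protein that binds MCL1 (ENSMUSG00000024521, chromosome 18, 66458533 to 66465565, plus strand), passed in all 6 lines and in opposite directions. Female p53 KO libraries were at 46, 47 and 47.8 CPM, the highest of any line. Female p53 R172H libraries were at 3.74, 4.75 and 5.05 and those of female p53 Y202C at 2.66, 3.3 and 3.62. The falls were 10.4-fold (log2 -3.39, SE 0.119, adjusted p = 1.54e-17) and 14.7-fold (log2 -3.88, SE 0.127, adjusted p = 7.64e-18). Female p53 Y217C, at 21.4, 22.4 and 24.4 CPM, lay between, 2.07-fold below the KO (log2 -1.05, SE 0.106, adjusted p = 1.36e-08). In the male culture the KO started lower, at 13, 13.5 and 14.7 CPM. Male p53 R172H, at 23.6, 25.9 and 27.6, and male p53 Y202C, at 26.5, 26.6 and 34.1, were above it by 0.9 (SE 0.108, adjusted p = 4.36e-07) and 1.08 (SE 0.108, adjusted p = 3.06e-09) on the log2 scale. Male p53 Y217C, at 4.75, 5.69 and 5.7 CPM, was 2.54-fold below it (log2 -1.35, SE 0.116, adjusted p = 2.67e-10). The same p53 R172H and p53 Y202C changes thus went with more Pmaip1 than the KO in one culture and far less in the other, and p53 Y217C with less in both. Over all genes, 13.2% passed in all 6 comparisons, and 48.7% were higher in at least 1 and lower in at least 1.

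Bcl2l11, which encodes BIM (ENSMUSG00000027381, chromosome 2, 128126038 to 128162547, plus strand), fell in 4 lines and rose in 1. Male p53 KO libraries were at 28.5, 28.9 and 31.8 CPM, male p53 Y202C at 13.7, 13.8 and 14.3 and male p53 Y217C at 17.4, 18.9 and 19.2. The log2 fold changes were -1.09 (2.13-fold lower, SE 0.0788, adjusted p = 9.18e-12) and -0.69 (1.61-fold lower, SE 0.0777, adjusted p = 3.2e-08). Female p53 KO libraries were at 27.7, 30 and 30.5 CPM. Female p53 R172H, at 22.3, 22.3 and 26.6, and female p53 Y202C, at 23.2, 23.3 and 24.1, differed from them by -0.31 (adjusted p = 0.000965) and -0.32 (adjusted p = 0.000856) on the log2 scale. Female p53 Y217C, at 34.3, 34.7 and 38.7 CPM, was above every KO library, by 0.29 (adjusted p = 0.0026). Male p53 R172H overlapped the KO at 0.05 (95% interval -0.11 to 0.21).

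Male p53 Y202C was thus the line where all 3 pro-survival genes, Bax, Bid, Bbc3 and Pmaip1 were higher together and Bak1, Bok and Bcl2l11 lower. All 10 members had libraries that did not overlap the KO there, where 74.9% of all genes did not overlap. In male p53 R172H and male p53 Y217C 8 members each did not overlap, against 52.9% and 77% of all genes. The female p53 Y217C line had 8 such members (66% of all genes), the p53 Y202C line 7 (70.4%) and the p53 R172H line 8 (75.4%). Male p53 Y202C also had the lowest summed astrocyte markers, 197 to 207 CPM against 340 to 366 in male p53 KO, and the lowest summed fibroblast markers. Of the single astrocyte markers, Gja1, Sox9 and Aldoc had their lowest line mean there, whereas Gfap, Slc1a3, Slc1a2, Aldh1l1 and S100b were lowest in other lines. The part of either set of markers in the member changes was not tested.

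The study's design sets the same p53 mutation side by side in a male and a female culture. The male effect minus the female effect was tested directly, and differences between mutations were not. It passed for 10 of 10 members for p53 Y202C, 8 of them with the higher value in the male culture, where 68% of all genes passed (34.5% higher and 33.5% lower). For p53 Y217C 9 passed, 5 higher and 4 lower (54.8% of all genes, 27.5% higher and 27.4% lower), and for p53 R172H 6 passed, 4 higher and 2 lower (58%, 29.7% higher and 28.3% lower). With an absolute difference above 0.5 as well, 7, 4 and 4 members passed for these mutations in that order, against 50%, 35% and 36.2% of all genes. Pmaip1 differed most, by 4.97 (SE 0.166, adjusted p = 8.16e-18) for p53 Y202C and by 4.29 (SE 0.159, adjusted p = 1.06e-16) for p53 R172H on the log2 scale, while for p53 Y217C the difference of -0.3 did not pass (95% interval -0.62 to 0.02, adjusted p = 0.11), though it did in limma (-0.34, adjusted p = 0.0117) and in a fit of the lines compared alone (-0.3, adjusted p = 0.0198). Bcl2l1 differed by 2.16 (SE 0.0866, adjusted p = 2.32e-16) for p53 Y202C, Bid by 1.34 (adjusted p = 6.14e-11) and Bbc3 by 1.23 (adjusted p = 1.23e-09). For p53 Y217C the widest differences were Bcl2 at 1.15 (adjusted p = 1.9e-07), Bid at 1.08 (adjusted p = 4.78e-09) and Bcl2l11 at -0.98 (adjusted p = 4.77e-08). Members called in opposite directions in the 2 cultures were Bcl2 and Pmaip1 for p53 R172H, Bcl2l1, Bax and Pmaip1 for p53 Y202C and Mcl1 and Bcl2l11 for p53 Y217C. Over all genes 11.9%, 23.1% and 12.2% were called in opposite directions for these mutations. Leaving out 1 library could end the calls on Bcl2 in male p53 R172H, Bax in female p53 Y202C and Mcl1 in both p53 Y217C lines.

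**Figure D3:**
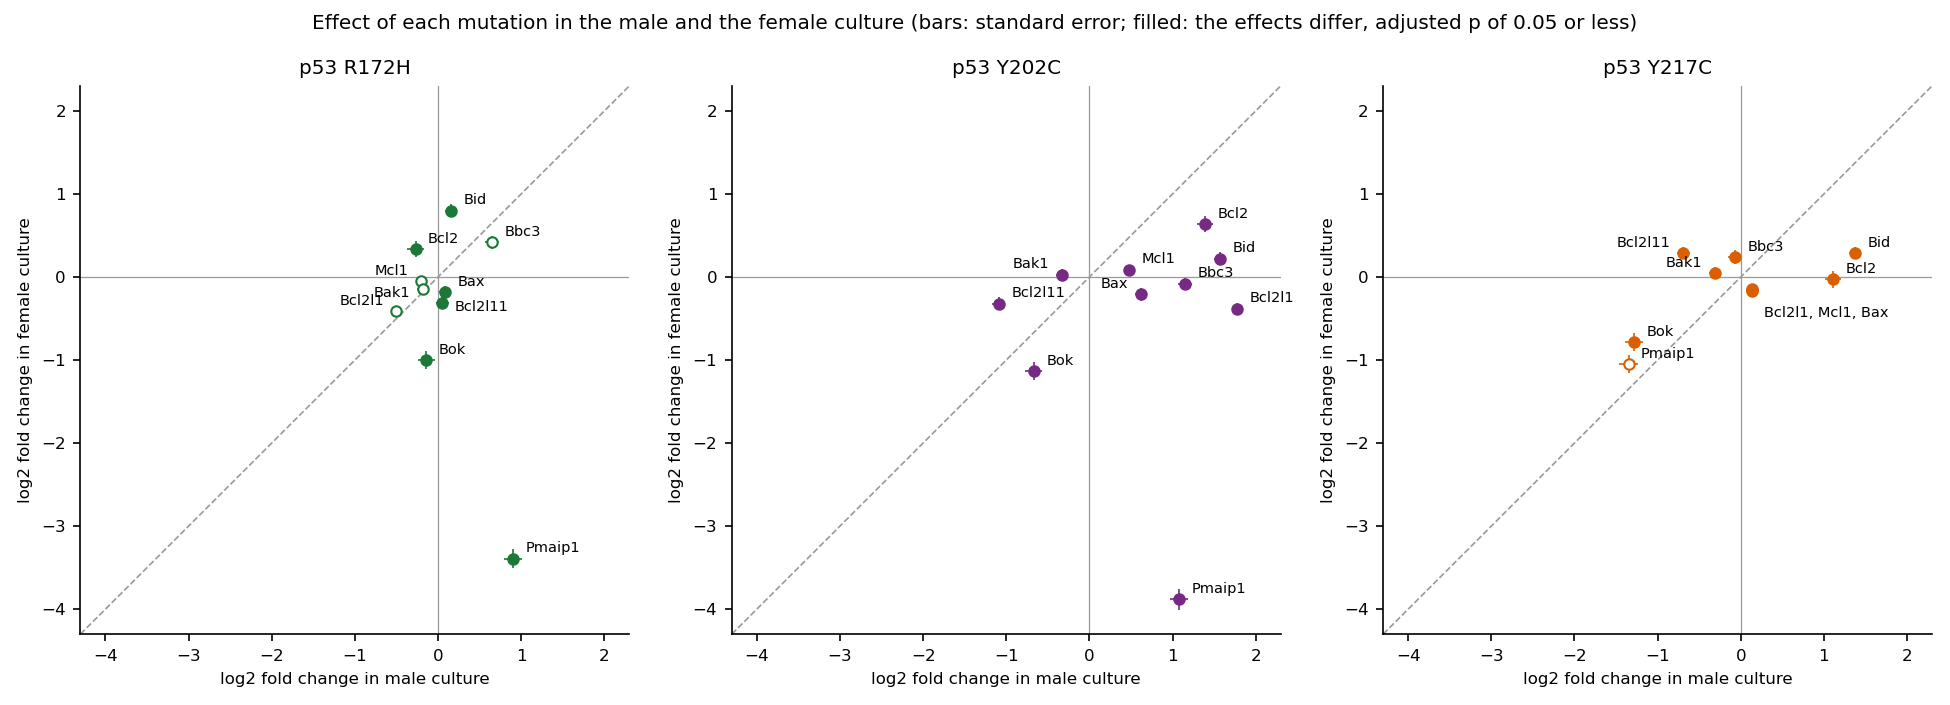
log2 fold change of each member against the KO in the male culture (horizontal axes) and in the female culture (vertical axes), 1 panel per mutation, with bars of 1 standard error, filled where the effects differed (adjusted p of 0.05 or less) and a dashed line of equal effects. Pmaip1 lies at 0.9 and -3.39 for p53 R172H and at 1.08 and -3.88 for p53 Y202C, far from the dashed line, and near it at -1.35 and -1.05 for p53 Y217C.

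With no mutant present, the KO lines of the 2 cultures differed in 4 members, 2 higher and 2 lower in the male culture, where 31.1% of all genes differed (17.2% higher and 13.8% lower). In limma this background was larger, 7186 genes against 4482. Pmaip1 was 3.43-fold lower in male p53 KO (log2 -1.78, SE 0.109, adjusted p = 4.73e-12), Bcl2 was higher by 0.35 (adjusted p = 0.00879), Bid higher by 0.22 (adjusted p = 0.0244) and Bok lower, at -0.29 (adjusted p = 0.0356). The call on Bcl2 was lost without replicate 3 of female p53 KO (0.3, adjusted p = 0.0524), that on Bid without replicate 1 of female p53 KO or 2 or 3 of male p53 KO (0.16 to 0.23, adjusted p from 0.0503 to 0.153), and that on Bok without any 1 of 5 of the 6 libraries (-0.3 to -0.22, adjusted p from 0.0685 to 0.177). The KO libraries of 6 members did not overlap between the cultures, against 51.2% of all genes. Each mutant effect above is relative to the KO of its own culture, so these differences enter the differences between cultures.

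Read as levels rather than changes, most pairs of the 8 lines differed for Pmaip1, 25 of 28, and for Bcl2 and Bcl2l11, 24 each. Over all genes, the share that differed in a pair of lines ran from 31.1% to 75.3%. Neighbours in the order could not always be separated. For Pmaip1, Bcl2, Bid and Bcl2l11, 3 of the 7 neighbouring pairs did not pass, for Bok 4, for Bcl2l1 and Bbc3 5, for Mcl1 and Bax 6, and for Bak1 all 7. Fewest pairs passed for Bax, 11 of 28, and Bak1, 12 of 28. Male p53 Y202C was the highest line for Bcl2, Bcl2l1, Mcl1, Bax, Bid and Bbc3 and the lowest for Bak1 and Bcl2l11.

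Because Bax promotes and Bcl2 blocks the opening of the membrane, their ratio is often used as a summary, and it is given here per kb of exon as a description of mRNA levels with no test. It was 17.1 to 17.9 in male p53 KO and 23.4 to 26.3 in female p53 KO. Male p53 R172H was higher, at 21.1 to 23.6, and male p53 Y202C and male p53 Y217C lower, at 8.16 to 11.8 and 8.33 to 9.92. In the female culture p53 R172H was at 16 to 18.8, p53 Y202C at 11.4 to 16.9 and p53 Y217C at 19.6 to 28.1. The libraries of female p53 Y217C overlapped those of the KO, whereas those of the other 5 mutant lines did not overlap the KO of their culture.

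Long-cultured p53-null cells can gain or lose stretches of chromosome, so each member was set beside the genes within 5 Mb on either side. Of the 45 called values, 34 lay outside the quartiles of these neighbours and 11 inside. Many neighbours lie outside their own quartiles by definition, and called values lie away from 0 by selection. The same share over all called genes was not computed. Those inside included Bcl2 in male p53 R172H, at -0.27 with a median of -0.22 over 15 neighbours, and Bid in female p53 Y202C, at 0.22 with a median of 0.32 over 94. For Bcl2l1 in male p53 Y202C the member was at 1.78 and the median of 123 neighbours at -0.08. For Pmaip1 in female p53 Y202C the member was at -3.88 and the median of 51 neighbours at 0.11. The neighbours of Bok in female p53 Y217C moved with it, at a median of -0.53 over 51 genes with quartiles of -0.72 and -0.26, beside -0.78 for Bok. Bcl2, on the same chromosome, had 15 neighbours with a median of -0.4 in that line and was itself at -0.03. In the other 4 lines where Bok fell, the neighbours' medians were between -0.14 and 0.1. The copy number of these regions was not analysed here, and its part in the values was not tested.

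**Figure D4:**
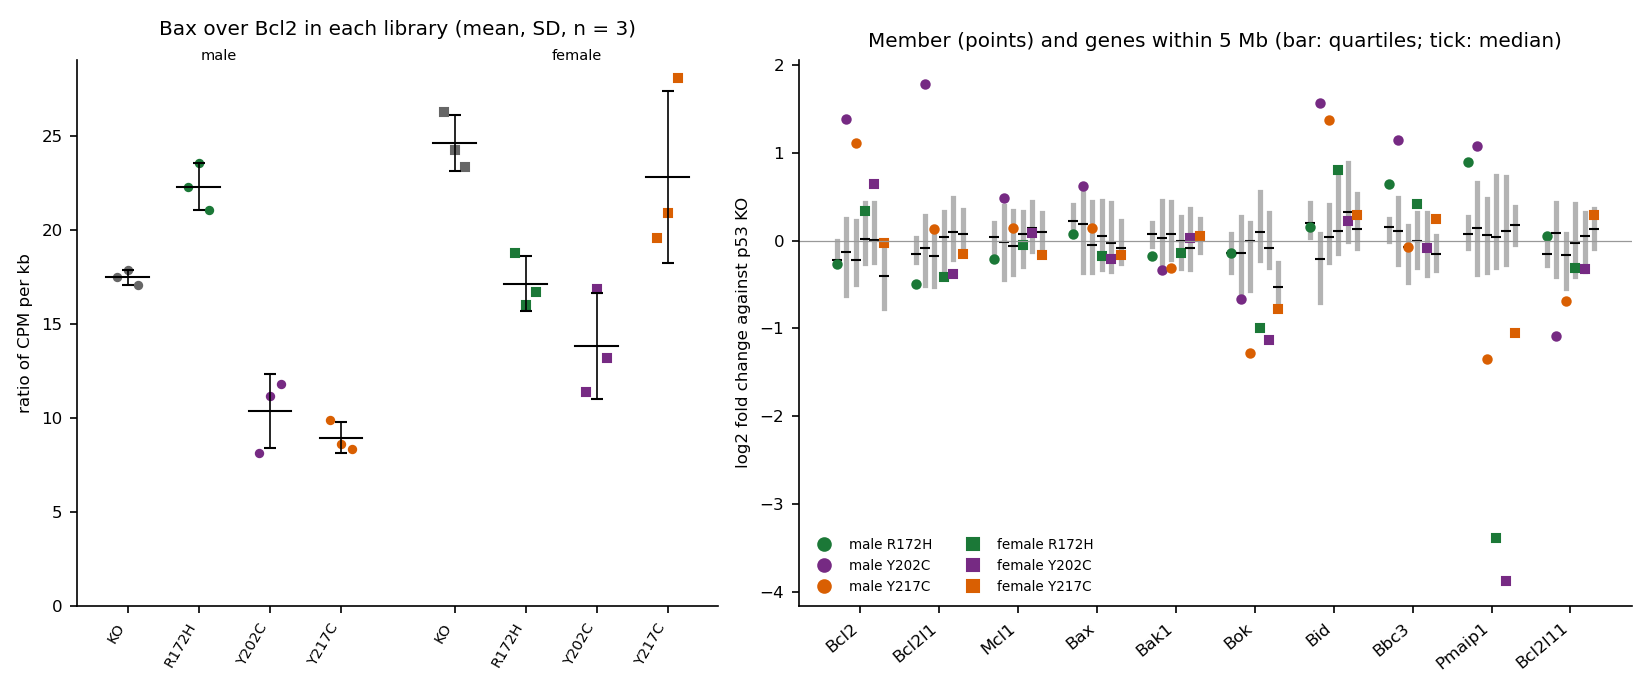
Left, the ratio of Bax to Bcl2 (CPM per kb, vertical axis from 0) in each library with the mean and SD of each line (n = 3), lowest in male p53 Y202C and male p53 Y217C at 8.16 to 11.8. Right, the log2 fold change against the KO of each member (points) beside the quartiles (grey bars) and median (ticks) of the genes within 5 Mb, where the bar of Bok in female p53 Y217C lies below 0, from -0.72 to -0.26.

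Likeness between members was measured over the 24 libraries, which share 8 lines and so give far fewer independent points. Of the 45 pairs of members, 15 had a Pearson r of log2 CPM above 0.5 and 10 below -0.5, and the same shares over pairs of all genes were not computed. The highest were Bcl2 with Mcl1 at 0.91, Bcl2 with Bid at 0.89 and Bcl2l1 with Bax at 0.89. The lowest were Bcl2 with Bcl2l11 at -0.94, Mcl1 with Bcl2l11 at -0.89 and Bid with Bcl2l11 at -0.87. Pmaip1 and Bcl2l1 had the widest ranges, and the genes of the whole table most like them were Rps6ka2 (r = 0.969), Dennd5a (0.953) and Ipo7 (0.953) for Pmaip1, and Zfand2a (0.97), Extl1 (0.967) and Pvr (0.964) for Bcl2l1. These values describe likeness over lines that differ in many genes at once and carry no test.

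Other genes of the pathway were read from lists of 63 genes in the table. Their counts stand against the shares of all genes that passed, which were 40.7% in male p53 R172H, 73% in male p53 Y202C, 70.5% in male p53 Y217C, 56.7% in female p53 Y217C, 69.7% in female p53 R172H and 68.6% in the female p53 Y202C line, and no list was tested against them. Of 9 other BCL2 family genes, 7 passed in male p53 R172H (4 higher, 3 lower), 6 in male p53 Y202C (3 and 3) and 5 in male p53 Y217C (3 and 2). Among the female lines 9 passed in p53 Y217C (4 and 5), 6 in the p53 Y202C line (4 and 2) and 7 in the p53 R172H line (5 and 2). Bmf, a BH3-only gene linked to loss of attachment, showed the largest rise in every line but male p53 Y202C, from 0.57 on the log2 scale in male p53 R172H to 2.11 in male p53 Y217C. Its level stayed low, from a mean of 1.86 CPM (SD 0.452, n = 3) in female p53 KO to 10.5 CPM (SD 1.45, n = 3) in male p53 Y217C. Bad, whose protein is kept inactive by growth-factor signals, showed the largest rise in male p53 Y202C, 0.46 (adjusted p = 1.24e-05). Bcl2l2, a pro-survival gene, showed the largest fall in female p53 Y217C, -0.66 (adjusted p = 8.23e-08). The medians of these 9 genes ran from -0.19 to 0.52 over the 6 comparisons.

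Downstream of the pore, 13 genes of mitochondrial exit and the apoptosome were measured, and between 5 (male p53 R172H, 40.7% of all genes) and 11 (male p53 Y202C, 73%) of them passed in each line. Htra2, a mitochondrial protease that antagonises inhibitors of apoptosis once released, was the largest rise in all 6 lines. Its mean level was 34 CPM (SD 0.238, n = 3) in male p53 KO and 37.4 (SD 1.01, n = 3) in female p53 KO, and reached 152 (SD 5.43, n = 3) in female p53 Y217C. The log2 fold changes ran from 1.04 to 1.83 in the male lines and from 0.57 to 2.02 in the female lines, with p53 Y217C lowest in the former and highest in the latter. Apaf1, the scaffold of the apoptosome, fell by 0.88 in male p53 Y202C (adjusted p = 3.47e-11) and by 0.37 in male p53 Y217C (adjusted p = 2.83e-05), and Cycs, which encodes cytochrome c, by 0.64 in female p53 R172H (adjusted p = 1.47e-05) and 0.43 in female p53 Y202C (adjusted p = 0.00129). The medians of the 13 genes stayed between -0.18 and 0.05.

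Of the 5 inhibitors of apoptosis, 3 passed in male p53 R172H (3 higher), 3 in male p53 Y202C (3 lower) and 2 in male p53 Y217C (2 lower), and among the female lines 3 in p53 Y217C (2 higher, 1 lower), 4 in the p53 Y202C line (2 and 2) and 5 in the p53 R172H line (3 and 2). Over the 6 lines Xiap rose in 3 and Birc2 in 4, and neither fell in any, while Birc5 fell in 3 and Birc6 in 5, and neither rose in any. Birc3, which encodes an inhibitor induced by NF-kappaB, was called in both directions, and fell by 2.18 on the log2 scale in male p53 Y217C (adjusted p = 1.68e-16) and rose by 1.29 in female p53 R172H (adjusted p = 1.15e-12). Birc5, survivin, which also acts in cell division, fell by 1.79 in male p53 Y202C (adjusted p = 1.48e-13), from a mean of 67 CPM (SD 5.77, n = 3) to 19.4 (SD 0.859, n = 3). Of 11 death receptor and initiator caspase genes, 5 passed in male p53 R172H (40.7% of all genes), 10 in male p53 Y202C (73%), 9 in female p53 Y202C and 8 in each of the remaining 3 lines. Fas, the receptor of Fas ligand, rose in all 6 lines, by 0.49 in male p53 Y202C to 2.55 in female p53 R172H, with a mean of 1.87 CPM (SD 0.0637, n = 3) in female p53 KO and 10.9 (SD 0.943, n = 3) in female p53 R172H. Tnfrsf10b, the mouse TRAIL death receptor, fell by 2.83 in male p53 Y217C (adjusted p = 2.25e-20), from 32.5 CPM (SD 0.773, n = 3) to 4.56 (SD 0.167, n = 3).

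Of 12 other p53 target genes, between 5 (male p53 R172H, 40.7% of all genes) and 10 (male p53 Y202C, 73%, and female p53 Y217C, 56.7%) passed in each line, with medians from -0.07 to 0.28. The list was drawn up for cell death but also holds genes of other roles, such as Cdkn1a. Trp53inp1, which encodes a stress-induced p53 partner, rose in all 6 lines, by 0.65 in male p53 R172H to 2.03 in male p53 Y217C. Perp, an epithelial junction and apoptosis gene that stood at a mean of 0.993 CPM (SD 0.0858, n = 3) in male p53 KO and 6.97 (SD 0.94, n = 3) in female p53 KO, rose by 1.99 in male p53 R172H and 2.2 in male p53 Y217C and fell by 1.77 in female p53 Y217C and 1.85 in female p53 Y202C. Cdkn1a, the cell cycle inhibitor p21, fell by 1.01 in male p53 Y217C (adjusted p = 4.79e-11), from 20.4 CPM (SD 1.63, n = 3) to 10.1 (SD 0.494, n = 3). Of the 63 genes of all lists, 4 were higher in all 6 comparisons, Htra2, Fas, Trp53inp1 and Bnip1, the last named after its values were seen, and 0 were lower in all 6 by edgeR, where 2.54% of all genes were higher in all 6 and 2.56% lower. A further 9 of the 63 were higher in 5 comparisons and 7 lower in 5, and the same shares of all genes were not computed.

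Among 9 transcription factor genes known to act on BCL2 family genes, 9 passed in female p53 R172H, 8 of them higher, where 69.7% of all genes passed and 34.4% were higher, and between 5 and 8 in the other lines. Ddit3, which encodes CHOP, a factor of the unfolded protein response, stood at a mean of 363 CPM (SD 17.6, n = 3) in male p53 Y202C and 46.6 (SD 4.67, n = 3) in male p53 KO, a log2 fold change of 2.96 (SE 0.0801, adjusted p = 1.31e-19). Its part in the member levels was not tested. Trp63, a relative of Trp53, showed the largest rise in male p53 Y217C, by 2.64, and in all 3 female mutant lines, by 1.66 in p53 Y217C, 2.32 in p53 Y202C and 3.84 in p53 R172H. Its levels were low, from means of 0.396 CPM (SD 0.0275, n = 3) in male p53 KO and 0.248 (SD 0.142, n = 3) in female p53 KO to at most 3.68 (SD 0.158, n = 3). E2f1, a factor of S-phase entry, fell in 5 lines, by 0.23 in male p53 R172H to 0.58 in male p53 Y202C, and Stat3, which many cytokines activate, fell most in male p53 Y217C, by 1.08. Of 4 regulators of MCL1 turnover, 1 passed in male p53 R172H, 3 each in the female lines of p53 Y217C and p53 Y202C and 4 in the other lines. The ubiquitin ligase gene March5 rose by 0.66 in male p53 Y202C and 0.78 in female p53 R172H, and the ligase gene Huwe1 fell by 0.5 in female p53 R172H (adjusted p = 1.56e-05).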

How the data were processed

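Counts per gene were deposited by the authors for 24 RNA-seq libraries (Clontech SMARTer, poly(A) RNA), made with STAR 2.5.1a and Subread featureCounts per the labels, on Ensembl release 76 in the study's methods. The table holds 14427 genes, of which 14350 were named through GENCODE M21 (GRCm38). No normalization had been applied. All 24 libraries entered 1 fit of 8 lines in edgeR 4.0.16 (TMM, glmQLFit, glmQLFTest) in R 4.3.3, keeping genes above 1 CPM in at least 2 libraries, which removed none, with Benjamini-Hochberg adjusted p-values over all genes and a threshold of 0.05. Each mutant was set against the KO of its culture, and the male effect against the female effect. Intervals are 95% from the same fit. CPM uses TMM effective library sizes. The fit was tested on simulated data in which few genes changed, in a single line. The real lines differed in far more genes, so the simulation does not check error rates here. Alternatives were limma 3.58.1, DESeq2 1.42.0, other scalings and filters, a replicate block and leaving out each library. The members and lists were chosen with earlier results of these data known. Named genes are all members, Trp53, genes with the largest called rise or fall of a list in a mutant comparison, and the 3 genes most like the 2 widest-ranging members. Outside that rule, cell type markers, genes that overlap a member and Bnip1 were named as checks or to complete a count, the last after its values were seen.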

Additional observations from a re-analysis of the deposited data

Results flagged for a closer look

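A difference between the effect of a mutation in the male and in the female culture, tested as male effect minus female effect in edgeR, put 25 member values on this list. For p53 R172H, the log2 difference between the male and the female effect was -0.61 for Bcl2, 0.25 for Bax, 0.86 for Bok, -0.64 for Bid, 4.29 for Pmaip1 and 0.36 for Bcl2l11. For p53 Y202C, the log2 difference between the male and the female effect was 0.75 for Bcl2, 2.16 for Bcl2l1, 0.39 for Mcl1, 0.83 for Bax, -0.36 for Bak1, 0.46 for Bok, 1.34 for Bid, 1.23 for Bbc3, 4.97 for Pmaip1 and -0.77 for Bcl2l11. For p53 Y217C, the log2 difference between the male and the female effect was 1.15 for Bcl2, 0.28 for Bcl2l1, 0.31 for Mcl1, 0.31 for Bax, -0.36 for Bak1, -0.5 for Bok, 1.08 for Bid, -0.31 for Bbc3 and -0.98 for Bcl2l11. The value of Bax for p53 R172H is the least firm, since its call was lost without any 1 of 9 of the 12 libraries involved (0.19 to 0.26, adjusted p from 0.0547 to 0.126), and in DESeq2 (adjusted p = 0.0617), with DESeq2 size factors (0.0639), with total counts (0.0612) and with a stricter filter (0.0899). That of Bbc3 for p53 Y217C was lost without replicate 1 of female p53 Y217C, 2 of male p53 Y217C or 2 of either KO line (-0.29 to -0.25, adjusted p from 0.0551 to 0.0735), that of Bax for p53 Y217C without replicate 3 of female p53 Y217C (0.25, adjusted p = 0.0518) and that of Bok for p53 Y202C without replicate 3 of female p53 Y202C (0.32, adjusted p = 0.0628). With 1 culture per sex, sex cannot be told apart from culture in any of these.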

How the results depend on the processing

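The number of members called stayed within 1.5 times its main value under limma, DESeq2, DESeq2 size factors, total-count scaling, no filter, a stricter filter and a fit of the lines compared alone, and moved when an absolute log2 fold change above 0.5 was asked for as well: to 2 in male p53 R172H, 2 in female p53 Y217C, 3 in female p53 Y202C, 3 in female p53 R172H, 1 between the KO lines and 4 for the difference of effects of p53 Y217C. Leaving out 1 library at a time gave 2 to 4 members between the KO lines, with 2 without replicate 1 or 3 of female p53 KO or 2 or 3 of male p53 KO, and 4 to 7 in female p53 Y217C, with 4 without replicate 2 of female p53 KO. Of 800 member values in the other alternatives 760 kept direction and call, 22 gained the call, 13 lost it and 5, all uncalled and near 0, changed sign. Those were Bcl2 in female p53 Y217C (0.05 in limma, 0.04 with total counts), Bbc3 in male p53 Y217C (0.03 with total counts) and Bcl2l1 between the KO lines (0.03 with total counts, 0 with the stricter filter). Total counts ended the calls on Bax in female p53 Y202C (adjusted p = 0.088), Bcl2l1 and Mcl1 in female p53 Y217C (adjusted p = 0.283 and 0.161), Bok between the KO lines (adjusted p = 0.0562) and Bax in the difference of p53 R172H effects (adjusted p = 0.0612). Without 1 library the sign changed for Bcl2 in female p53 Y217C (range -0.11 to 0.08), Bak1 in female p53 Y202C (-0.04 to 0.07), Bak1 in the difference of p53 R172H effects (-0.1 to 0.02), Bcl2l11 in male p53 R172H (-0.02 to 0.13) and, between the KO lines, Bcl2l1 (-0.05 to 0.02) and Bcl2l11 (-0.04 to 0.05). The cause was not tested. Total-count scaling moved the median of all genes by 0.1 in male p53 Y217C. Between the KO lines limma called 7186 genes against 4482. Replicate numbers are shared by the lines but did not pair the libraries over all lines. The mean correlation of deviations was -0.0116 over 84 pairs of the same number and 0.00571 over 168 of different numbers. Only 4 of 24 libraries correlated best with their own number. Between male p53 R172H and male p53 KO, pairs of the same number ran from 0.0664 to 0.245, with 2 of 3 above 0.1. With the replicate block, Bak1 in male p53 R172H was lost (adjusted p = 0.0574), leaving 5 members there, and the counts of the other comparisons did not change. The 15 member values that did not pass had 95% intervals between -0.36 and 0.32, the precision that 3 libraries a line allowed.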
